A study of Mus musculus with 39 samples.

Results

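The T cell receptor complex and its coreceptors were followed through 10 genes in mouse lung and colon. They were Cd3e, Cd3d, Cd3g and Cd247, the kinase genes Lck and Zap70, the coreceptor genes Cd4, Cd8a and Cd8b1, and the costimulatory receptor gene Cd28. Each was taken as the line of the lung table and of the colon table whose Ensembl identifier carries that symbol, 10 of the 55357 genes in each table. The samples were 39 libraries of mRNA-enriched RNA from C57BL/6N mice, either wild type (WT) or Cd177 knock-out (KO). Cd177 encodes a surface protein of neutrophils. Within each genotype, some mice were sham operated and the others had AP, acute pancreatitis, in which the inflamed pancreas can also harm lung and gut. Lung and colon each had the groups WT sham, WT AP, KO sham and KO AP, with 5 libraries in each group except 4 in colon KO AP. The sources used here do not give how the knock-out was made, how pancreatitis was induced, the age of the mice or the time of sampling. The labels do not say that each library came from a separate animal, so the p-values measure the spread between libraries, which may be technical.

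Mature T cells recognise peptides through a receptor whose antigen-binding chains carry no signalling tail. The CD3 chains, encoded by Cd3e, Cd3d and Cd3g, and the zeta chain, encoded by Cd247, pass the signal on through motifs that the kinase Lck phosphorylates and the kinase Zap70 then binds. CD4 and the CD8 alpha and beta chains bind the presenting molecule and bring Lck to the receptor, and CD28 adds the costimulatory signal. Lung and colon hold T cells resident in the tissue and others that pass through with blood.

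Values are FPKM, fragment counts scaled for transcript length and for the number of mapped fragments. Fold changes are log2 differences of FPKM + 1, with their standard error (SE), from limma, and a gene was called changed at an adjusted p under 0.05 over all genes of the tissue that passed a filter on low values. Each of the 10 genes passed this filter in both tissues. Cd177 was listed at 0 in all 19 KO libraries, and in WT it ranged from 1.3 to 4.18 FPKM in lung and from 38.5 to 76.4 FPKM in colon. Read totals recovered from the values, in megareads, were 57.9 to 71.2 in WT lung, 77.0 to 95.4 in KO lung, 55.6 to 78.3 in WT colon and 77.7 to 98.6 in KO colon. In lung the ranges of WT and KO did not overlap. In colon they did not overlap within a treatment, with 65.4 to 78.3 in WT AP and 78.5 to 98.6 in KO AP. In colon sham they were 55.6 to 76.6 in WT and 77.7 to 91.2 in KO. Depth and genotype therefore cannot be told apart in either tissue. Fewer genes were above 0 in KO libraries on average, 23657 against 25264 in WT for lung and 22760 against 24075 for colon. Epithelial and endothelial genes of the lung summed to at least 37632 FPKM in each lung library and at most 7.07 FPKM in each colon library, while epithelial genes of the colon summed to at least 1356 FPKM in colon and at most 11.1 FPKM in lung. Thymocyte genes (Rag1, Rag2, Ptcra, Dntt and Arpp21) summed to at most 0.499 FPKM in any library.

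Of the KO libraries, 3 from sham mice stood apart in the T cell receptor genes. Colon KO sham replicate 5 reached the range of WT sham in 9 of the 10 genes, although Cd177 was 0 in it. Lung KO sham replicates 4 and 5 were high in Cd3d and Cd3g, and replicate 4 also in Cd3e, Lck, Cd8a and Cd8b1. Of the lung libraries, KO sham replicate 5 also had the largest sum of all FPKM (800442) and the fewest genes above 0 (21471). Its share of FPKM in mitochondrially encoded genes was the lowest (2.49%). Lung KO AP replicate 3 had 1822 FPKM of adipocyte genes in sum, against 3.88 FPKM in the lowest library of its group. The differences of the 10 genes in sham, which rest on these libraries, are given with and without them, and the gene lists were fitted only with them. The 3 sham libraries stood out by high values of these same genes, so leaving them out lowers the KO sham level by construction.

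The sequences upstream of Cd3e, Cd3d, Cd3g and Zap70 are shown because, with AP, the CD3 genes fell in KO in both tissues while Zap70 was not called in lung. They are the 250 bases before the transcription start in RefSeq, build GRCm38.p6, written 5′ to 3′ on the strand of the gene. Capitals mark an ETS core motif (AGGAAG, or CTTCCT on the other strand) or a RUNX core motif (TGTGGT, or ACCACA). For Zap70 the first of 3 windows is given.
Cd3e, chr9:45009612-45009861, minus strand: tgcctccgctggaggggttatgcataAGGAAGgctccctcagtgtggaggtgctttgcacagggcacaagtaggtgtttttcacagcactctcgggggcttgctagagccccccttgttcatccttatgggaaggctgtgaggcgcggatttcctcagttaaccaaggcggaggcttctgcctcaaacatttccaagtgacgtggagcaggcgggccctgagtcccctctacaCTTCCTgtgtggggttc
Cd3d, chr9:44981536-44981785, plus strand: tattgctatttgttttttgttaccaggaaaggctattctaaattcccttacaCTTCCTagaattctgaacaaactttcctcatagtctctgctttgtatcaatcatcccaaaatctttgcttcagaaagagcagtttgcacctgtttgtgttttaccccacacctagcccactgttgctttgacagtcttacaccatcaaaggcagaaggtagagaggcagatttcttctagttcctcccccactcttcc
Cd3g, chr9:44980432-44980681, minus strand: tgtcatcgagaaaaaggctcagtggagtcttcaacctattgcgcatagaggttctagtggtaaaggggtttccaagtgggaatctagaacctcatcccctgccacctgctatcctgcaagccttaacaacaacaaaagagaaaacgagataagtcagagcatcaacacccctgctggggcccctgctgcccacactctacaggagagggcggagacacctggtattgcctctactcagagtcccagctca
Zap70, chr1:36761548-36761797, plus strand: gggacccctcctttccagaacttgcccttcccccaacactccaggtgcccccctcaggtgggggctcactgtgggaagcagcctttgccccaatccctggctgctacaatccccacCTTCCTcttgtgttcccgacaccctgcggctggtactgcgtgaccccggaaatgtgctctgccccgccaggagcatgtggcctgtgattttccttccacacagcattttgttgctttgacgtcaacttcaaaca
Cd3g, Cd3d and Cd3e follow each other on chromosome 9, and Cd3g and Cd3d are read in opposite directions from neighbouring starts. The ETS motif occurred at 2 places upstream of Cd3e, at 1 upstream of Cd3d and at 0 upstream of Cd3g. The 3 Zap70 windows held it at 1, 2 and 0 places, and the second of them, not shown, also held 1 RUNX motif. Of the 32851 windows of this length in the RefSeq table, 29.5% held it and 14.0% held the RUNX motif, so a match is a description of these letters only. Windows were also found for Cd247, Lck and Cd8a, 10 windows from 7 genes in all.

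T cell receptor genes were lower in the knock-out in both tissues, in 9 or 10 of the 10 with pancreatitis. In lung with pancreatitis 9 of the 10 genes fell in KO against WT, where 28.1% of all genes tested were called lower (limma). Their median log2 difference was -1.61, against 0.00 over all genes. In colon with pancreatitis 10 of 10 fell, where 10.9% of all genes were called lower, with a median of -2.55 against -0.01. Among sham libraries 6 of 10 fell in lung, where 30% of all genes were called lower, and the median was -0.81 against -0.01. In colon sham 10 of 10 fell, where 15.4% of all genes were called lower, and the median was -1.77 against 0.01. No gene of the 10 was called higher in KO in these 4 comparisons, where 27.6% of all genes were higher in lung AP, 28.8% in lung sham, 7.37% in colon AP and 16% in colon sham. In lung the shares over all genes are large, 55.8% of genes called in either direction with AP and 58.8% in sham, so the count in lung stands against a wide difference between the genotypes. In colon these shares were 18.3% with AP and 31.4% in sham. With values scaled to a common total (TPM scale) the median of all genes moved to -0.18 in lung AP, -0.26 in lung sham, -0.13 in colon AP and -0.15 in colon sham. The split of lower and higher calls moved with it, from 4496 and 4412 genes to 5492 and 2965 in lung AP, and from 4787 and 4606 to 6209 and 2891 in lung sham. In colon it moved from 1637 and 1106 to 1762 and 541 in AP, and from 2306 and 2398 to 2683 and 1249 in sham, or to 2774 and 1928 with upper quartile scaling. The counts of the T cell receptor genes on the TPM scale were 9, 7, 10 and 10 in the same order. In these bulk samples, fewer T cells and less RNA per T cell cannot be told apart.

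**Figure D1:**
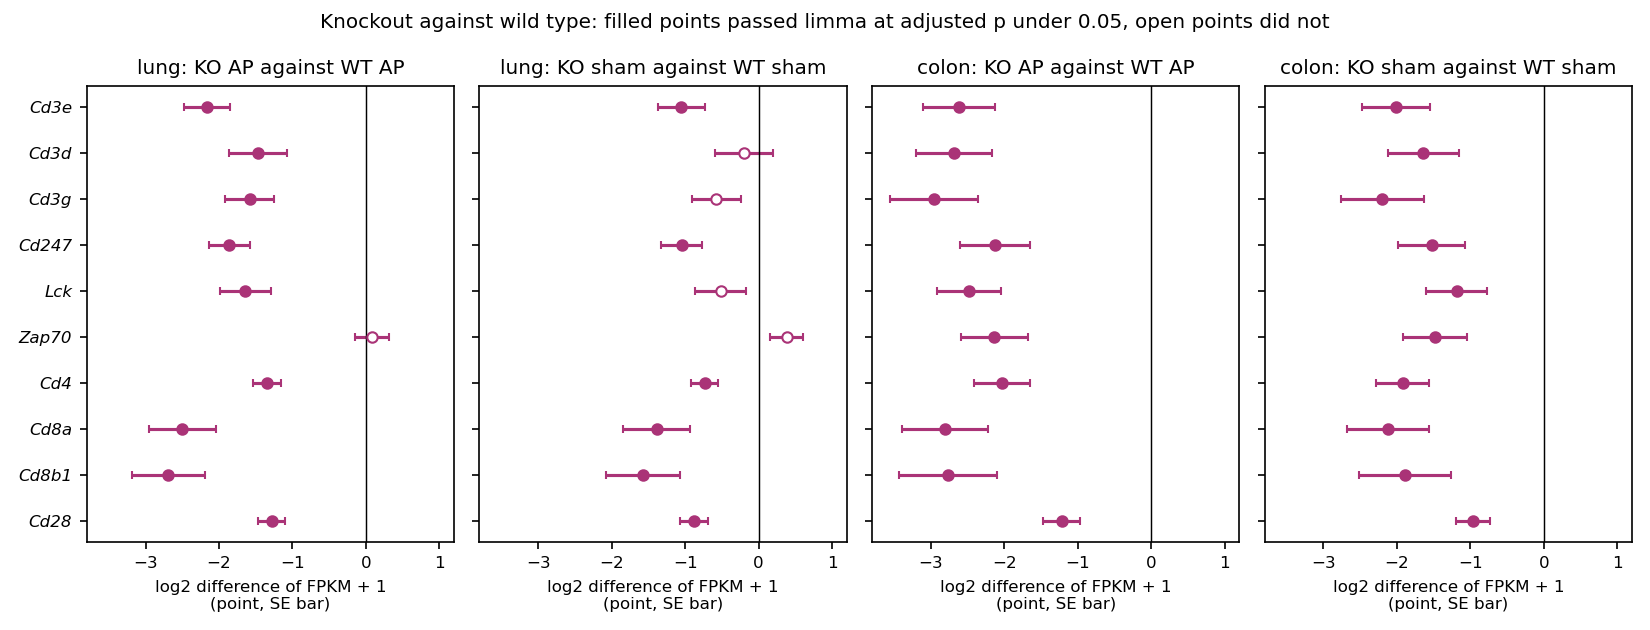
Log2 difference of FPKM + 1 (points, with SE bars) of the 10 genes in KO against WT, for lung and colon with AP or sham. Filled points passed limma at an adjusted p under 0.05 and open points did not: Zap70 sits to the right of 0 in both lung panels, and all 10 points are filled in both colon panels.

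Among the CD3 chains, Cd3e showed the plainest separation in lung. Cd3e, the epsilon chain that every receptor complex carries, measured 8.91, 4.92, 6.09, 4.77 and 4.74 FPKM in WT sham and 6.44, 12.6, 9.90, 3.5 and 8.08 FPKM in WT AP, replicates 1 to 5. In KO AP the values were 1.35, 1.15, 0.819, 0.628 and 0.679 FPKM. Every KO AP library lay below every WT AP library. In KO sham they were 0.936, 1.13, 2.09, 6.98 and 2.56 FPKM, so that 4 of the 5 libraries lay below the lowest WT sham library and replicate 4 lay inside the WT range. The mean with AP was 0.924 ± 0.310 FPKM in KO and 8.10 ± 3.43 FPKM in WT (SD, n = 5 each), 8.77 times lower, with a log2 difference of -2.16 ± 0.32 (adjusted p = 2.06e-05, limma). In sham the difference was -1.05 ± 0.32 (adjusted p = 0.00823, limma).

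Cd247, the zeta chain, gave the same order of groups in lung. It measured 6.42, 4.24, 4.58, 3.64 and 4.84 FPKM in WT sham and 0.656, 0.892, 2.03, 3.33 and 2.81 FPKM in KO sham. With AP it measured 6.90, 10.9, 7.34, 2.89 and 6.85 FPKM in WT and 1.33, 0.951, 2.07, 0.667 and 0.634 FPKM in KO. WT and KO did not overlap under either treatment. The log2 difference was -1.86 ± 0.28 with AP (adjusted p = 2.75e-05) and -1.05 ± 0.28 in sham (adjusted p = 0.00367, limma).

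Cd3d and Cd3g, the delta and gamma chains, were lower in KO lung with AP but were not called in sham. With AP, Cd3d ranged from 0.513 to 3.58 FPKM in KO and from 4.77 to 11.4 FPKM in WT, a log2 difference of -1.48 ± 0.39 (adjusted p = 0.00384). Cd3g ranged from 1.22 to 2.98 FPKM in KO and from 4.35 to 14.7 FPKM in WT, a difference of -1.58 ± 0.33 (adjusted p = 0.000618, limma). Neither gene overlapped between the genotypes with AP. In KO sham, Cd3d was 1.78, 1.46 and 2.32 FPKM in replicates 1 to 3 and 9.44 and 8.98 FPKM in replicates 4 and 5, above every WT sham library (3.48 to 7.38 FPKM). The sham difference was -0.20 ± 0.39 for Cd3d (adjusted p = 0.680) and -0.58 ± 0.33 for Cd3g (adjusted p = 0.145). Without lung KO sham replicates 4 and 5 and KO AP replicate 3, Cd3d was at -0.94 (adjusted p = 0.0144), Cd3g at -1.21 (adjusted p = 0.000969) and the number of the 10 genes called lower in sham was 9, where 5172 of the 15782 genes tested in that fit were called lower (limma). In the same fit the sham difference was -1.53 for Cd3e, -1.42 for Cd247, -0.94 for Lck, -0.83 for Cd4, -2.10 for Cd8a, -2.45 for Cd8b1 and -1.0 for Cd28, and Zap70 was at 0.27 (adjusted p = 0.260). KO sham replicates 4 and 5 were left out for high values in these genes. The larger differences and added calls in this fit follow in part from that choice and are not separate evidence.

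**Figure D2:**
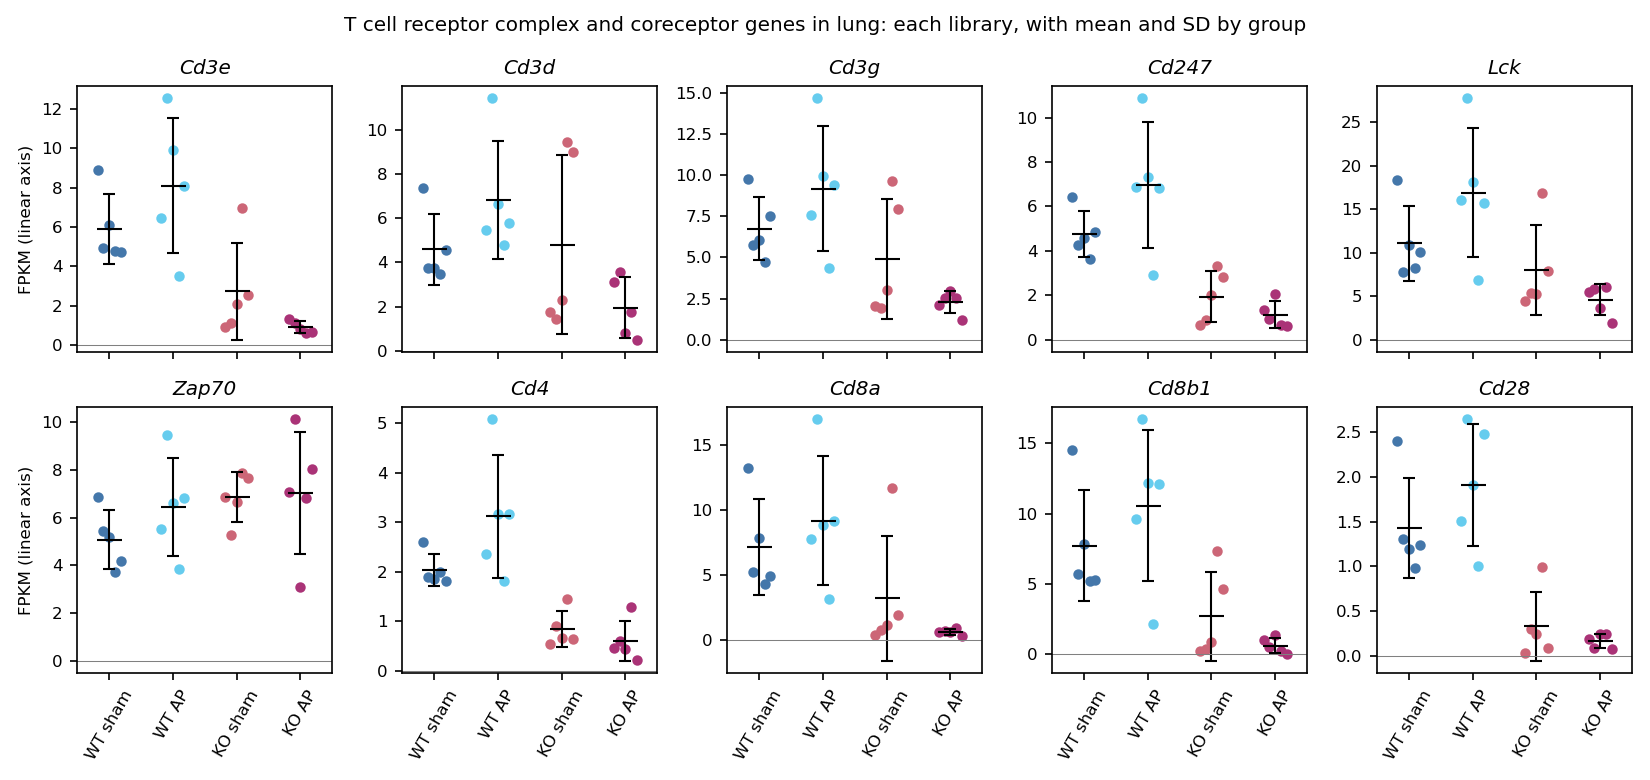
FPKM of the 10 genes in every lung library on linear axes, by group, with the mean as a dash and the SD as a bar. With AP every KO library lies below every WT library in 9 genes, Zap70 overlaps, and KO sham replicate 4 stands above the rest of its group in Cd3e, Lck, Cd8a and Cd28.

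In colon the 4 chains were at most 1.22 FPKM in the KO libraries apart from KO sham replicate 5. Cd3e measured 8.14, 5.48, 8.55, 9.02 and 7.94 FPKM in WT sham and 5.83, 17.8, 11.2, 2.48 and 13.1 FPKM in WT AP. In KO AP it was 0.202, 0.639, 0.319 and 1.22 FPKM, replicates 1, 3, 4 and 5. In KO sham replicates 1 to 4 it was 0.817, 0.356, 0.472 and 0.481 FPKM, and in replicate 5 it was 7.80 FPKM. WT AP replicate 4 was the lowest and replicate 2 the highest WT library for each of the 4 chains. The mean with AP was 0.595 ± 0.456 FPKM in KO (SD, n = 4) and 10.1 ± 6.04 FPKM in WT (SD, n = 5), 17.0 times lower, with a log2 difference of -2.62 ± 0.49 (adjusted p = 0.00238, limma). The sham difference was -2.01 ± 0.47 (adjusted p = 0.00409), and -2.52 without KO sham replicate 5.

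The other chains in colon had the same pattern. Cd3g ranged from 0.0997 to 1.11 FPKM in KO AP and from 2.86 to 24.9 FPKM in WT AP, a log2 difference of -2.96 ± 0.60 (adjusted p = 0.00356), the lowest of the 10 genes in this comparison. Cd3d was listed at 0 in 2 KO libraries and reached 0.213 FPKM at most in KO AP, against 2.02 to 11.9 FPKM in WT AP, a difference of -2.68 ± 0.51 (adjusted p = 0.00258). Cd247 lay between 0.0174 and 0.266 FPKM in KO AP and between 0.751 and 9.16 FPKM in WT AP, a difference of -2.12 ± 0.48 (adjusted p = 0.00639, limma). None of these 3 genes overlapped between the genotypes with AP. In sham their differences were -2.20 ± 0.56, -1.64 ± 0.48 and -1.53 ± 0.45, in the order Cd3g, Cd3d and Cd247 (adjusted p = 0.00735, 0.0160 and 0.0159, limma). KO sham replicate 5, with 12.9, 9.30 and 4.82 FPKM of these genes, lay above every WT sham library in each. Without that library the sham differences were -2.85 for Cd3g, -2.24 for Cd3d and -2.01 for Cd247. They were -1.54 for Lck, -1.96 for Zap70, -2.16 for Cd4, -2.78 for Cd8a, -2.61 for Cd8b1 and -1.12 for Cd28, and all 10 genes were called lower in that fit (limma). With every library kept all 10 were called lower too, where 15.4% of all genes were. The share over all genes without replicate 5 is not given here. That library was left out for its high values in these genes, so the larger differences follow from the choice.

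Summed over the 4 chains, the level per library ran from 16.6 to 32.5 FPKM in lung WT sham, from 15.5 to 49.5 FPKM in WT AP, from 5.38 to 29.4 FPKM in KO sham and from 3.04 to 8.24 FPKM in KO AP. The median was 20.5, 30.1, 9.44 and 6.69 FPKM in that order. For colon the ranges were 21.3 to 29.3, 8.11 to 63.8, 0.670 to 34.8 and 0.568 to 2.33 FPKM, with medians of 26.4, 38.3, 1.65 and 1.53 FPKM. In colon KO sham the highest value was that of replicate 5. Levels were not compared between tissues, since each tissue has its own table.

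**Figure D3:**
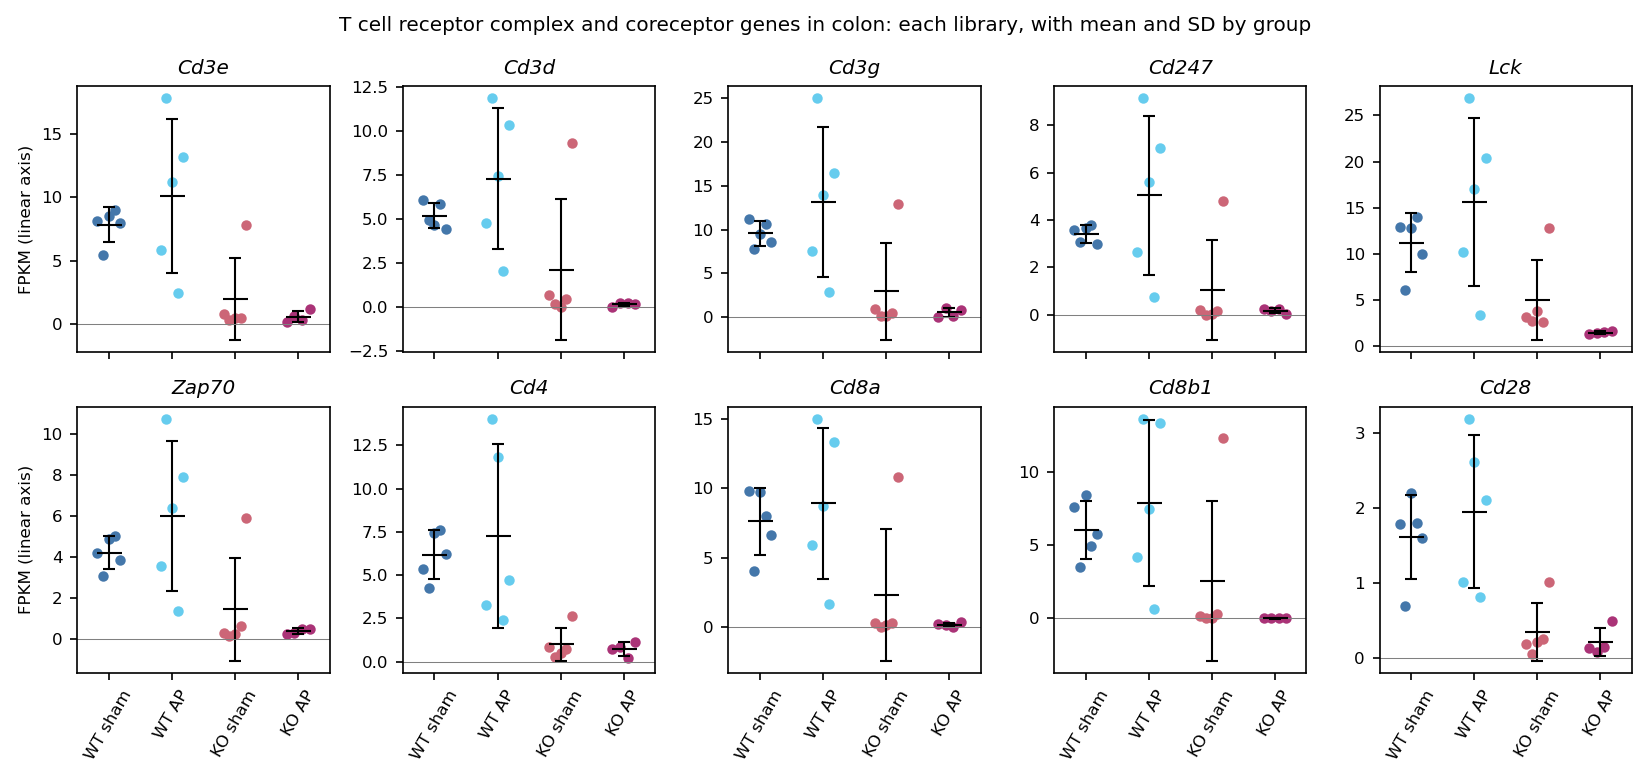
FPKM of the 10 genes in every colon library on linear axes, by group, with the mean as a dash and the SD as a bar. KO sham replicate 5 reaches the WT sham range in all panels but Cd4, where at 2.64 FPKM it is above only the lowest WT AP library, and the other KO libraries lie below every WT sham library.

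Lck, the kinase that starts signalling at the receptor, was lower in KO in both tissues but did not fall to the floor. In lung it measured 18.3, 7.75, 10.9, 8.26 and 10.1 FPKM in WT sham and 16.1, 27.8, 18.1, 6.89 and 15.7 FPKM in WT AP. In KO sham it was 4.44, 5.41, 5.26, 16.9 and 7.94 FPKM and in KO AP 5.51, 5.82, 3.69, 6.02 and 1.86 FPKM. The genotypes overlapped in sham but not with AP. The log2 difference was -1.64 ± 0.35 with AP (adjusted p = 0.000616) and -0.51 ± 0.35 in sham (adjusted p = 0.212), which became -0.80 without KO sham replicate 4 (adjusted p = 0.0379, limma). Replicate 4 was singled out for high values that include Lck, so this call follows in part from the choice and is not separate evidence. In colon Lck measured 13.0, 6.16, 12.9, 14.0 and 10.1 FPKM in WT sham and 10.2, 26.9, 17.1, 3.43 and 20.4 FPKM in WT AP. Its KO sham values were 3.19, 2.80, 3.83, 2.60 and 12.8 FPKM, and in KO AP they were 1.38, 1.42, 1.58 and 1.66 FPKM. The 4 KO AP libraries lay close together and below every other colon library. The difference was -2.48 ± 0.44 with AP (adjusted p = 0.00177) and -1.18 ± 0.42 in sham (adjusted p = 0.0378, limma). The sham call was lost in 8 of the leave-one-out fits and without the filter on low values, with an adjusted p of up to 0.0881.

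Zap70, the kinase recruited to phosphorylated CD3 and zeta chains, behaved differently in the tissues. In lung it measured 6.87, 5.44, 5.19, 3.70 and 4.19 FPKM in WT sham and 6.85, 5.26, 6.65, 7.89 and 7.68 FPKM in KO sham. With AP it measured 5.51, 9.46, 6.63, 3.84 and 6.82 FPKM in WT and 7.09, 10.1, 3.10, 6.83 and 8.03 FPKM in KO. The genotypes overlapped under both treatments. The difference was 0.08 ± 0.23 with AP (adjusted p = 0.776) and 0.38 ± 0.23 in sham (adjusted p = 0.151, limma), and with AP its sign turned on the TPM scale (-0.11) and without WT AP replicate 4 (-0.06) or KO AP replicate 2 (-0.05). A p that misses the threshold does not show that the genotypes had equal levels. In colon, by contrast, Zap70 was 4.23, 3.06, 4.90, 5.03 and 3.85 FPKM in WT sham and 3.59, 10.7, 6.40, 1.38 and 7.92 FPKM in WT AP. It was 0.311, 0.161, 0.238, 0.666 and 5.91 FPKM in KO sham and 0.261, 0.296, 0.515 and 0.508 FPKM in KO AP. There it fell with the other genes, with differences of -2.13 ± 0.46 with AP (adjusted p = 0.00490) and -1.48 ± 0.43 in sham (adjusted p = 0.0150, limma). The difference between the tissues was not tested.

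Within a library, several ratios between the kinases and the receptor differed between the genotypes by their medians. In lung the ratio of Zap70 to Lck FPKM had a median of 0.449 in WT sham and 0.367 in WT AP, and of 0.971 in KO sham and 1.29 in KO AP. Zap70 to Cd3e ran from 0.670 to 1.10 over the WT lung libraries, from 1.13 to 7.31 in KO sham and from 3.78 to 11.8 in KO AP, so the WT and KO libraries did not overlap. In colon the ratio of Zap70 to Lck went the other way, with medians of 0.381 and 0.388 in WT sham and WT AP and of 0.0977 and 0.257 in KO sham and KO AP. The ratio of Lck to Cd3e was higher in KO in both tissues by its median. It was 1.79 in lung WT sham and 1.97 in WT AP against 3.10 in KO sham and 4.50 in KO AP. In colon the medians were 1.5, 1.52, 5.4 and 3.59 in the same order, with 1.64 in KO sham replicate 5. The ratio of Zap70 to Cd3e overlapped between the genotypes in colon. It ran from 0.485 to 0.574 in WT sham, 0.555 to 0.616 in WT AP, 0.381 to 1.39 in KO sham and 0.416 to 1.61 in KO AP. Colon KO AP ratios rest on low values, with Zap70 at 0.261 to 0.515 FPKM and Cd3e at 0.202 to 1.22 FPKM. These ratios were not tested.

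**Figure D4:**
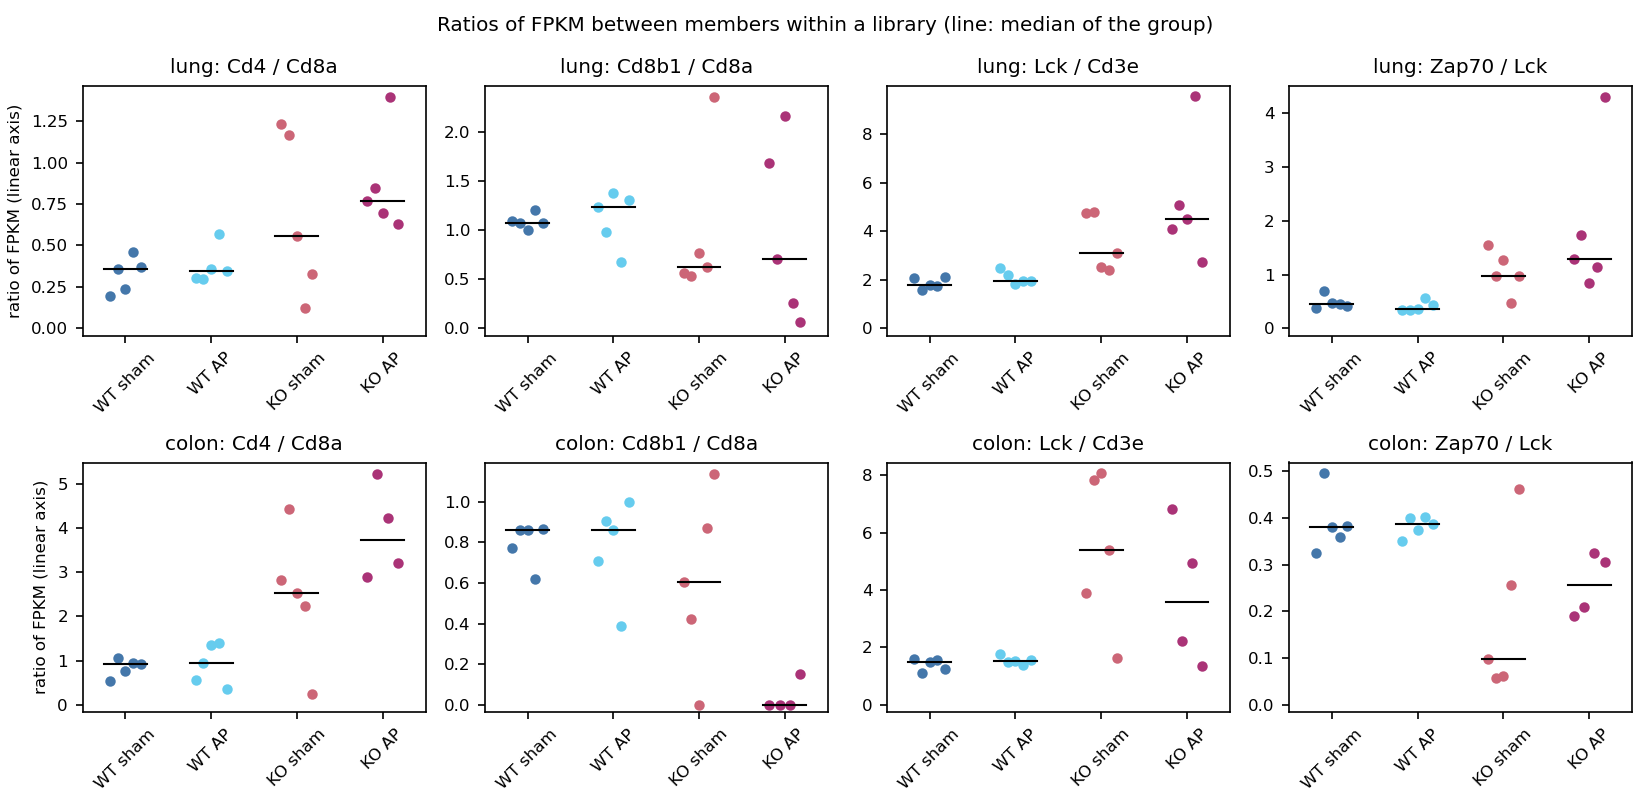
Ratios of FPKM between members within each library on linear axes, with the group median as a line, for lung (top) and colon (bottom). The Zap70 to Lck ratio is higher in KO than in WT lung by its median and lower in KO than in WT colon. The Cd4 to Cd8a ratio of colon is from 2.89 to 5.24 in KO AP, where Cd8a was at most 0.362 FPKM.

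The coreceptor genes of cytotoxic T cells showed the lowest log2 differences in lung. Cd8a, the alpha chain, measured 13.3, 5.29, 7.87, 4.33 and 4.94 FPKM in lung WT sham and 7.78, 17.0, 8.85, 3.18 and 9.21 FPKM in WT AP. It was 0.431, 0.766, 1.19, 11.7 and 1.96 FPKM in KO sham and 0.601, 0.713, 0.641, 0.912 and 0.340 FPKM in KO AP. With AP the groups did not overlap, and in sham only KO replicate 4 reached the WT range. The difference was -2.50 ± 0.46 with AP (adjusted p = 0.000163) and -1.38 ± 0.46 in sham (adjusted p = 0.0138), or -1.92 without that library (adjusted p = 7.36e-05, limma). That library was singled out for its high Cd8a, so the lower p follows in part from the choice and is not separate evidence. Cd8a means with AP were 0.641 ± 0.207 FPKM in KO and 9.21 ± 4.98 FPKM in WT (SD, n = 5 each), 14.4 times lower.

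Cd8b1, the beta chain that marks conventional CD8 T cells, has 1 annotated transcript, and its values could be turned back into whole reads. In lung these were 1534, 489, 705, 496 and 484 reads in WT sham and 906, 1605, 1129, 188 and 1172 reads in WT AP. KO sham had 33, 55, 127, 964 and 528 reads and KO AP had 141, 67, 197, 30 and 3 reads. KO AP lay below WT AP, although WT AP replicate 4, at 188 reads, and KO AP replicate 3, at 197 reads, were close before scaling for depth (2.14 and 1.39 FPKM). The log2 difference of FPKM + 1 was -2.69 ± 0.50 with AP (adjusted p = 0.0002) and -1.57 ± 0.50 in sham (adjusted p = 0.0116, limma). In colon there were 762, 286, 955, 534 and 625 reads in WT sham and 406, 1319, 868, 69 and 1504 reads in WT AP. KO AP had 0, 0, 0 and 8 reads, and KO sham had 22, 3, 0, 35 and 1649 reads. A count of 0 allows up to 3 reads, for counting error only, so Cd8b1 was at or near the limit of detection in 5 of the 9 KO colon libraries. The log2 difference was -2.76 ± 0.67 with AP (adjusted p = 0.00939) and -1.89 ± 0.63 in sham (adjusted p = 0.0291, limma). The sham call was lost in 7 leave-one-out fits and without the filter on low values, with an adjusted p of up to 0.0738.

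Cd8a in colon followed Cd8b1. It measured 9.80, 4.03, 9.75, 8.0 and 6.68 FPKM in WT sham and 5.89, 15.0, 8.72, 1.71 and 13.4 FPKM in WT AP. In KO AP it was 0.248, 0.159, 0.0545 and 0.362 FPKM and in KO sham 0.290, 0.0617, 0.208, 0.329 and 10.8 FPKM. The KO libraries other than sham replicate 5 lay below every WT library. The difference was -2.81 ± 0.59 with AP (adjusted p = 0.00434) and -2.12 ± 0.55 in sham (adjusted p = 0.00830, limma). The ratio of Cd8b1 to Cd8a ran from 0.619 to 0.864 in colon WT sham and from 1.0 to 1.2 in lung WT sham. In WT AP it spread more widely, from 0.389 to 0.998 in colon and from 0.674 to 1.38 in lung. In KO AP the ratio was 0 in 3 colon libraries and 0.153 in replicate 5, and in lung it ran from 0.0641 to 2.17, at levels of both genes mostly under 1 FPKM.

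Cd4, the coreceptor of helper and regulatory T cells, was lower in KO in every comparison of the genotypes. In lung it measured 2.59, 1.89, 1.84, 1.99 and 1.82 FPKM in WT sham and 2.36, 5.08, 3.16, 1.81 and 3.16 FPKM in WT AP. KO sham had 0.532, 0.893, 0.665, 1.45 and 0.639 FPKM and KO AP had 0.463, 0.605, 0.445, 1.28 and 0.215 FPKM. No KO lung library reached the lowest WT library, replicates 4 and 5 of KO sham included. The difference was -1.35 ± 0.19 with AP (adjusted p = 1.40e-05) and -0.74 ± 0.19 in sham (adjusted p = 0.00267, limma). In colon Cd4 measured 5.36, 4.25, 7.42, 7.62 and 6.22 FPKM in WT sham and 3.29, 14.0, 11.8, 2.39 and 4.70 FPKM in WT AP. KO sham had 0.824, 0.273, 0.526, 0.738 and 2.64 FPKM and KO AP had 0.718, 0.833, 0.231 and 1.17 FPKM. It was the 1 gene of the 10 in which KO sham did not overlap WT sham in colon, where 8.15% of all genes had every KO library below every WT library. The difference was -2.03 ± 0.38 with AP (adjusted p = 0.00236) and -1.92 ± 0.36 in sham (adjusted p = 0.00108, limma).

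The ratio of Cd4 to Cd8a FPKM was higher in KO AP than in WT AP libraries of both tissues, without overlap. In lung it ran from 0.299 to 0.570 in WT AP and from 0.632 to 1.40 in KO AP, and in colon from 0.351 to 1.40 and from 2.89 to 5.24. Both genes were low in KO AP. Cd8a was at 0.340 to 0.912 FPKM in lung and 0.0545 to 0.362 FPKM in colon, and Cd4 at 0.215 to 1.28 and 0.231 to 1.17 FPKM. The KO AP ratios thus divide by values near the floor. Sham libraries overlapped. They ran from 0.195 to 0.459 in WT and from 0.124 to 1.23 in KO lung, and from 0.547 to 1.05 in WT and from 0.245 to 4.43 in KO colon. The 0.245 was KO sham replicate 5, in which Cd8a was at 10.8 FPKM and Cd4 at 2.64 FPKM. CD4 is also made by macrophages and dendritic cells in mice, and the part of those cells in the ratio was not tested.

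Cd28, the costimulatory receptor, was the least abundant of the 10 genes in WT in both tissues by its median. In lung it ran from 0.982 to 2.40 FPKM in WT sham, from 1.0 to 2.64 FPKM in WT AP, from 0.0378 to 0.994 FPKM in KO sham and from 0.0793 to 0.246 FPKM in KO AP. WT and KO did not overlap with AP, and in sham KO replicate 4 alone reached the lowest WT value. The difference was -1.28 ± 0.19 with AP (adjusted p = 2.02e-05) and -0.88 ± 0.19 in sham (adjusted p = 0.000568, limma). In colon it ran from 0.687 to 2.20 FPKM in WT sham and from 0.811 to 3.19 FPKM in WT AP, against 0.0563 to 1.02 FPKM in KO sham and 0.0817 to 0.495 FPKM in KO AP. The difference was -1.22 ± 0.25 with AP (adjusted p = 0.00387) and -0.97 ± 0.24 in sham (adjusted p = 0.00564, limma). These differences are on the scale of FPKM + 1, which understates the change of a gene this low.

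Counted by library, every KO AP library lay below every WT AP library for 9 of 10 genes in lung, where 18.7% of all genes did so, and for 10 of 10 in colon, where 8.61% did. In sham this held for 2 of 10 genes in lung (Cd247 and Cd4), where 22.5% of all genes did so.

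Pancreatitis moved the T cell receptor genes in neither genotype past the threshold. In WT lung the log2 differences of AP against sham were all above 0, from 0.25 for Cd28 to 0.52 for Lck, with 0 of 10 called (adjusted p from 0.746 to 0.959, limma) where 0.0814% of all genes were called. At an unadjusted p under 0.05 there was 1 of the 10, and 1066 of the 15978 genes tested. With each library weighted by its fit, 6 of the 10 were called higher (Cd3e, Cd3g, Cd247, Lck, Cd4 and Cd28) with adjusted p from 0.0134 to 0.0495, and 1640 genes were called in all. Without weights 0.025% of all genes were called higher. In KO lung the differences ran from -0.84 for Cd8a to -0.03 for Zap70, with 0 of 10 called (adjusted p from 0.294 to 0.967) where 0.0125% of all genes were called. At an unadjusted p under 0.05 there was 1 of the 10, and 2234 of the 15978 genes tested. These differences depend on the libraries that stand apart: the median of the 10 was -0.64 with all libraries and -0.10 without KO sham replicates 4 and 5 and KO AP replicate 3.

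In WT colon AP against sham ran from -0.03 for Cd4 to 0.25 for Cd3d, with 0 of 10 called (adjusted p from 0.938 to 0.999, limma), and 0% of all genes called. At an unadjusted p under 0.05 there were 0 of the 10, and 938 of the 15001 genes tested. Cd3e ran from 5.48 to 9.02 FPKM in WT sham and from 2.48 to 17.8 FPKM in WT AP. No gene of the 10 had every WT AP library below every WT sham library, where 1.09% of all genes did. In KO colon the differences ran from -1.05 for Lck to -0.12 for Cd28, with 0 of 10 called (adjusted p from 0.215 to 0.879) where 0.04% of all genes were called, 0.02% lower and 0.02% higher. At an unadjusted p under 0.05 there was 1 of the 10, and 2798 of the 15001 genes tested. With library weights 1026 genes were called in this comparison, and none of the 10. Lck was the 1 gene of the 10 with every KO AP library below every KO sham library, where 1.31% of all genes had this. The median was -0.54, and 0.03 without KO sham replicate 5. Lck was at -0.70 without that library (adjusted p = 0.421).

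In the fit without library weights, the AP response did not differ between the genotypes at the threshold for any of the 10 genes in either tissue, nor for any other gene (0% called). In lung the 10 differences of response lay below 0, from -1.28 for Cd3d to -0.30 for Zap70 (adjusted p from 0.537 to 0.756, limma), and 5 had an unadjusted p under 0.05. Their median was -1.06, and -0.43 without the 3 lung libraries that stand apart. In colon they ran from -1.30 for Lck to -0.10 for Cd4 (adjusted p from 0.258 to 0.930), and 1 had an unadjusted p under 0.05. Over all genes 1384 in lung and 2821 in colon had an unadjusted p under 0.05. With library weights the difference of response was called for 307 genes in lung and 1884 in colon, and for none of the 10.

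The rest of the receptor and its signalling chain was examined in lists. Each count of list genes called lower stands against 28.1% of all genes called lower in lung AP, 30% in lung sham, 10.9% in colon AP and 15.4% in colon sham, and each count called higher against 27.6%, 28.8%, 7.37% and 16%. The constant genes of the receptor's own chains, Trac for alpha and Trbc1 and Trbc2 for beta, fell in KO with AP in both tissues. In lung Trac was at 15.7 ± 6.10 FPKM in WT AP and 3.36 ± 1.69 FPKM in KO AP (SD, n = 5 each), and limma put the log2 difference at -1.93 ± 0.39 (adjusted p = 0.000426). In colon it was at 22.7 ± 14.8 FPKM (SD, n = 5) and 0.959 ± 0.582 FPKM (SD, n = 4), a difference of -3.31 ± 0.68 (adjusted p = 0.00391). In sham the colon difference of Trac was -2.50 ± 0.64 (adjusted p = 0.00747) and that in lung was -0.68 ± 0.39 (adjusted p = 0.141). Of the constant genes tested, 3 of 5 fell and 1 rose in lung AP, 0 of 5 changed in lung sham, and 4 of 6 fell in colon AP and in colon sham, beside the shares over all genes given above. The 1 that rose was Tcrg-C1, a constant gene of the gamma chain (0.61 ± 0.21, adjusted p = 0.0197). Trbc1 and Trbc2 are near copies of each other, as are the gamma constant genes, so reads could be split among them.

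Of 14 proximal signalling genes tested, 14 fell in lung AP and 13 in colon AP, with medians of -0.98 and -1.10 against 28.1% and 10.9% of all genes called lower. In sham 8 of 14 fell in colon, against 15.4%, and 5 of 14 in lung, near the 30% of all genes there. Lat, the membrane adaptor that Zap70 phosphorylates, fell by 0.77 ± 0.32 in lung AP (adjusted p = 0.0472) and its difference was -2.95 ± 0.65 in colon AP (adjusted p = 0.00593, limma). Grap2, the adaptor that links Lat to Lcp2, fell by 1.77 ± 0.22 in lung AP (adjusted p = 4.59e-06) and its difference was -1.75 ± 0.35 in colon AP (adjusted p = 0.00335). The 1 gene of colon AP that was not called was Sla2, an adaptor that dampens signalling, at -0.67 ± 0.28 (adjusted p = 0.0985).

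Of the inhibitory genes 8 of 11 fell in lung AP, against 28.1% of all genes, and 6 of 11 in lung sham, against 30%, with 1 higher in each. In colon 8 of 12 fell with AP, against 10.9%, and 8 of 12 in sham, against 15.4%. Cd5, a receptor that restrains signalling, fell by 1.53 ± 0.27 in lung AP (adjusted p = 0.000119) and its difference was -2.16 ± 0.52 in colon AP (adjusted p = 0.00906, limma). Lag3, the neighbour of Cd4 in the genome and an inhibitory receptor, rose in lung AP (0.46 ± 0.18, adjusted p = 0.0376) and fell in colon AP (-1.41 ± 0.39, adjusted p = 0.0180). Tigit, another inhibitory receptor, rose in lung sham (1.44 ± 0.57, adjusted p = 0.0353) and fell in colon AP (-1.83 ± 0.39, adjusted p = 0.00478). The difference between the tissues was not tested.

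Costimulation and adhesion genes fell in 8 of 10 tested in lung AP, against 28.1% of all genes, with 1 higher. In lung sham 3 of 10 were lower and 2 higher, near the shares of all genes (30% and 28.8%). In colon 8 of 9 fell with AP, against 10.9%, and 7 of 9 in sham, against 15.4%. Itgal, a chain of the integrin LFA-1, fell by 1.79 ± 0.28 in lung AP (adjusted p = 3.92e-05) and its difference was -2.38 ± 0.51 in colon AP (adjusted p = 0.00509, limma). Tnfrsf4, the costimulatory receptor OX40, rose in KO lung with AP (0.83 ± 0.20, adjusted p = 0.00191) and in sham (0.76 ± 0.20, adjusted p = 0.00334).

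Transcription factors of the T lineage fell in 9 of 10 tested in lung AP, against 28.1% of all genes, and 8 of 10 in lung sham, against 30%. In colon 4 of 8 fell with AP, against 10.9%, and 5 of 8 in sham, against 15.4%. In lung AP, lung sham and colon AP 1 gene of this list was called higher. Tcf7, which keeps naive and memory T cells, fell by 1.58 ± 0.30 in lung AP (adjusted p = 0.000260, limma), and Tbx21, the factor of type 1 responses, fell by 1.82 ± 0.28 (adjusted p = 3.17e-05). Genes of naive and recirculating T cells fell in 5 of 7 in lung AP, against 28.1%, with 1 higher, and in 3 of 7 in colon AP, against 10.9%. In sham 3 of 7 in lung and 2 of 7 in colon were called lower, against 30% and 15.4% of all genes. Klf2, a factor of recirculation that endothelium makes too, rose in lung AP (1.22 ± 0.30, adjusted p = 0.00225, limma). No gene of these lists was called for AP against sham or for the difference of the AP response. The lists were not refitted on the other scales.

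Marker genes of several other leukocytes were also lower in KO with AP in both tissues and in colon sham. In lung sham their counts called lower were near or below the share of all genes. Those of B cells were mostly not called, and those of innate lymphoid cells were higher in sum with AP and in lung sham. The part of these cells in the result was not tested. Pan-leukocyte genes fell in 4 of 5 in lung AP, against 28.1% of all genes, 5 of 5 in colon AP, against 10.9%, and 3 of 5 in colon sham, against 15.4%. In lung sham 1 of 5 was called lower, where 30% of all genes were. The pan-leukocyte sum ran from 106 to 425 FPKM in colon WT AP and from 25.4 to 88.4 FPKM in KO AP. Of the natural killer cell genes, Prf1, Gzma and Eomes are also used by cytotoxic T cells. Natural killer cell genes fell in 8 of 8 in lung AP (28.1% of all genes), 2 of 2 tested in colon AP (10.9%) and 1 of 2 in colon sham (15.4%). In lung sham 2 of 8 were called lower, where 30% of all genes were. In colon their sum was from 4.67 to 55.8 FPKM in WT AP, from 0.118 to 0.423 FPKM in KO AP and 45.2 FPKM in KO sham replicate 5. Macrophage and monocyte genes fell in 5 of 8 in colon AP, against 10.9% of all genes, and 7 of 8 in colon sham, against 15.4%. In lung they were near the shares of all genes, with 3 of 8 lower in AP (28.1%), and 2 of 8 lower and 2 higher in sham (30% and 28.8%). Dendritic cell genes fell in 3 of 5 in lung AP, against 28.1%, and in 3 of 4 in colon AP and in colon sham, against 10.9% and 15.4%. In lung sham 2 of 5 of them were called lower, where 30% of all genes were. Of the B cell genes 1 of 7 was called lower in each lung comparison, below the shares of all genes (28.1% with AP and 30% in sham). In either colon comparison 0 of 7 changed, with sums of 4.48 to 34.8 FPKM in colon KO AP and 5.19 to 50.0 FPKM in WT AP. Innate lymphoid cell genes went the other way in sum, from 10.7 to 12.4 FPKM in lung WT AP and from 22.6 to 31.4 FPKM in KO AP, and from 22.2 to 29.8 FPKM in colon WT AP and from 33.4 to 83.5 FPKM in KO AP, without overlap. Of the 2 tested, 1 rose and 1 fell in each lung comparison, and 1 rose in colon AP. The counts of these lists were not tested against each other. The share of all FPKM in mitochondrially encoded genes ran from 7.02% to 11.6% in colon WT AP and from 10.6% to 19.1% in KO AP, and from 7.47% to 14.1% in WT sham and from 4.62% to 13.5% in KO sham. In lung it ran from 5.13% to 11.4% in WT AP and from 4.96% to 14.0% in KO AP, and from 4.77% to 6.61% in WT sham and from 2.49% to 8.64% in KO sham. Its part in the result was not tested.

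**Figure D5:**
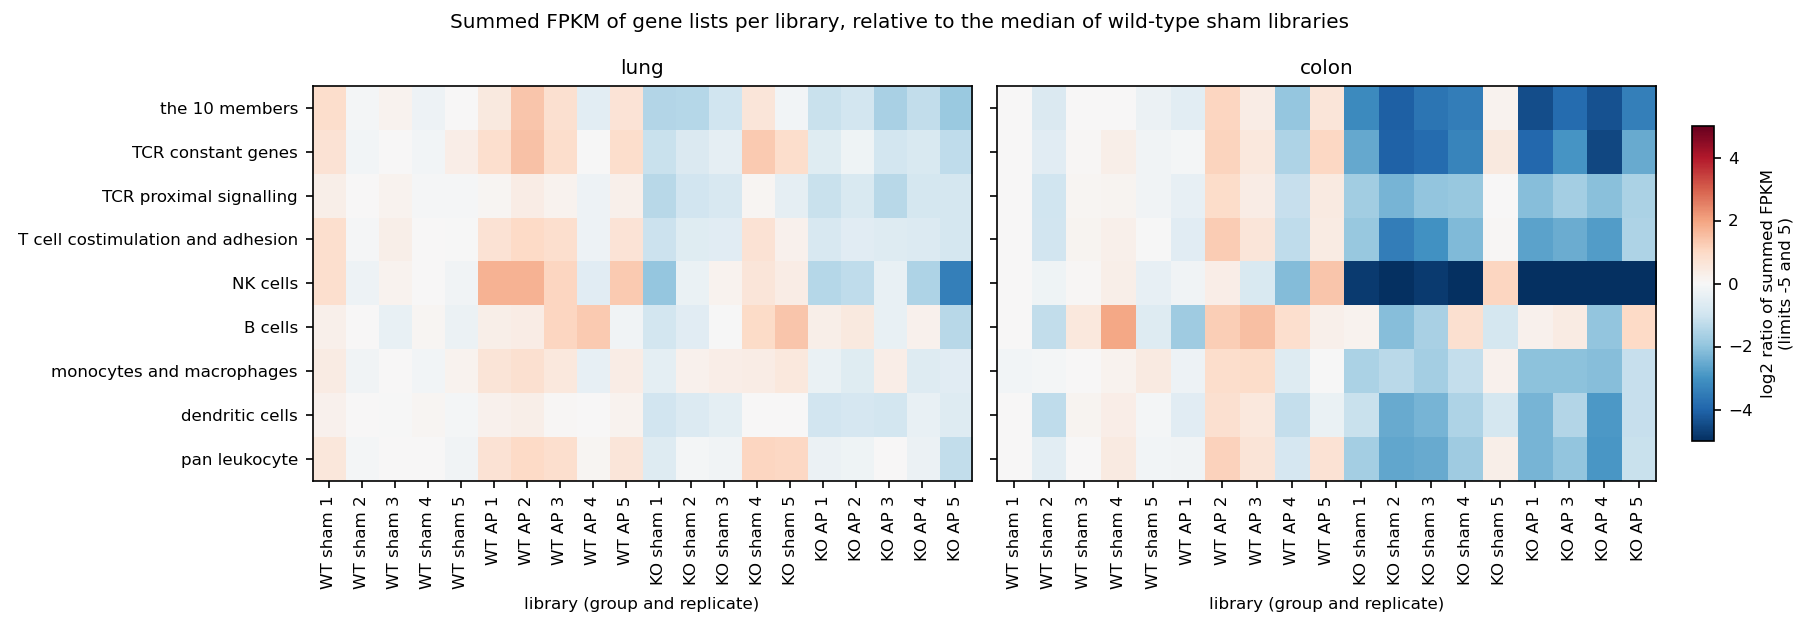
Log2 ratio of the summed FPKM of each gene list in each library to the median of the WT sham libraries of its tissue (colour). Colon KO sham replicate 5 is near or above 0 for the T cell receptor genes and natural killer cell genes, unlike the other KO colon libraries, which are far below 0 for natural killer cell genes.

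The library colon KO sham replicate 5 was high in more than the T cell receptor genes. Receptor constant genes summed to 83.5 FPKM in it, macrophage and monocyte genes to 291 FPKM and pan-leukocyte genes to 234 FPKM. Each sum was within or above the range of WT sham. B cell genes, at 9.68 FPKM, were also within their WT sham range (7.53 to 68.1 FPKM). Lung KO sham replicates 4 and 5 had 110 and 81.0 FPKM of receptor constant genes, above every WT sham library, and 433 and 422 FPKM of pan-leukocyte genes against 180 to 302 FPKM in WT sham.

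Genes were also ranked by how closely their profile over the libraries of a tissue followed the mean profile of Cd3e, Cd3d, Cd3g and Cd247, by the mean absolute log2 difference after centring. Over the 20 lung libraries the nearest were Skap1 at 0.168, Cd6 at 0.187, Cd2 at 0.195, Ly9 at 0.200 and Il18rap at 0.204, against a median of 0.759 over all genes. Over the 19 colon libraries they were Ms4a4b at 0.150, Spn at 0.176, Gzmk at 0.209, Itgb2 at 0.241 and Ciita at 0.241, against 1.28. The profiles share the libraries and their depth, and this ranking is a description. The measure also grows where a profile of the same shape has larger or smaller swings, so a rank does not measure shape alone. Lck ranked 11 of 15879 genes in lung and 27 of 14937 in colon. Zap70 ranked 9 in colon but 8628 in lung, with a difference of 0.786, near the median gene. Cd4 ranked 54 in lung and 42 in colon, and Cd28 37 in lung and 307 in colon. Cd8a ranked 698 and Cd8b1 2179 in lung, while in colon they ranked 8 and 14. Among pairs of the 10 genes, Cd4 and Cd28 were nearest in lung, at 0.158, and Cd247 and Zap70 in colon, at 0.115.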

How the data were processed

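The labels' protocols name Trizol extraction, mRNA enrichment, fragmentation, PCR and Illumina sequencing. The values the authors deposited are FPKM, with a separate table for lung and for colon. The submitters' processing notes list HISAT2 2.1.0, StringTie 1.3.3b and mm39 but give them no role. For annotation, strand and read filters the sources used here give nothing.

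The tissues were analysed apart. Of 55357 genes in each table, 15978 in lung and 15001 in colon reached 1 FPKM in 4 or more libraries and were tested. A model with 1 mean per group was fitted to log2(FPKM + 1) in limma 3.58.1 (R 4.3.3, variance trend), with two-sided tests, and a gene was called at a Benjamini-Hochberg adjusted p under 0.05. Comparisons were AP against sham in each genotype, KO against WT in each treatment, and the difference of the AP responses. The procedure was tested on simulated data. Read totals came from the FPKM steps of genes with 1 transcript, of which at least 98.2% came out whole within 0.01 read. Of the 10 genes only Cd8b1 gave whole reads, so no count test was run. Descriptions and plots used Python 3.11.15 (numpy 2.4.6; pandas 2.3.3; matplotlib 3.10.9).

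The genes, the lists and the 3 lung libraries left out together were chosen with earlier results of these data known, so no list is independent evidence. The rule for named genes was all 10 genes, list genes that passed the test and otherwise up to 4 with the lowest p, and per tissue the 5 genes nearest to the CD3 and zeta profile; of the list genes that passed, examples are printed, chosen after their values were seen. Alternatives were a pseudocount of 0.1, no filter, the TPM scale, upper quartile scaling, a replicate block, library weights, only the groups compared, each library left out, and 3 lung libraries left out. Some list genes are counted but not reported here by name.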

Additional observations from a re-analysis of the deposited data

Results flagged for a closer look

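Within single groups, some libraries lay far from the rest for a gene, by the gap to the nearest library over the range of the group, a measure that chance flags in about 1 in 20 groups. Colon KO sham replicate 5 was the highest of its group in all 10 genes. It had 7.80 FPKM of Cd3e, 9.30 of Cd3d, 12.9 of Cd3g, 4.82 of Cd247, 12.8 of Lck, 5.91 of Zap70, 2.64 of Cd4, 10.8 of Cd8a, 12.3 of Cd8b1 and 1.02 of Cd28. The next highest library had 0.817 FPKM of Cd3e and 0.287 FPKM of Cd8b1.

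Lung KO sham replicate 4 was far above its group in Cd3e (6.98 FPKM), Lck (16.9 FPKM), Cd8a (11.7 FPKM) and Cd28 (0.994 FPKM). Lung WT sham replicate 1 stood above its group in Cd3d (7.38 FPKM), Cd4 (2.59 FPKM), Cd8b1 (14.5 FPKM) and Cd28 (2.40 FPKM). In lung WT AP, replicate 2 did so in Cd3d (11.4 FPKM).

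In colon KO AP the values that stood apart were small. Cd3d was 0 FPKM in replicate 1 against 0.188 to 0.213 FPKM in the other libraries, and replicate 5 was highest in Cd8b1 (0.0556 FPKM) and in Cd28 (0.495 FPKM).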

How the results depend on the processing

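The number of the 10 genes called lower in KO with AP was 9 in lung and 10 in colon under the replicate block too, and 6 and 10 in sham. Of the 15978 genes tested in lung, 4396 were called lower with AP and 4718 in sham under the block. In colon 1261 and 1992 of 15001 were. Same-numbered libraries did not deviate together (correlations from -0.52 to 0.46), so the numbers were not taken to pair them; with the block Lck in colon sham had an adjusted p of 0.0448. With library weights 6 of the 10 were called higher in WT lung AP against sham, where 786 of the 15978 genes tested were, and 0 of the 10 without weights. Leaving out 1 library gave 6 to 8 genes lower in lung sham and 8 to 10 in colon sham. With every library kept, 30% and 15.4% of all genes were called lower there, and the shares in the leave-one-out fits are not given here. A pseudocount of 0.1 moved the median difference of KO against WT to -2.41 in lung AP, -3.89 in colon AP and -2.97 in colon sham. The cause of the changes below was not tested, and none of the values that turned sign was called.

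Signs turned as follows. In lung KO AP against KO sham, Zap70 was at 0.0042 with upper quartile scaling, 0.32 with library weights and 0.31 without the 3 lung libraries that stand apart, and Cd3d was at 0.074 without them. Zap70 in lung KO AP against WT AP was at -0.11 on the TPM scale, and its difference of response was 0.035 without the 3 libraries. In colon WT AP against sham, Cd8a was at -0.036 with a pseudocount of 0.1, -0.082 on the TPM scale, -0.032 with upper quartile scaling and -0.024 with library weights. Cd8b1 was at -0.12, -0.10 and -0.026 under the first 3 of these, and Cd4 at 0.12 with library weights.

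With 1 library left out, lung KO AP against KO sham ran from -0.17 to 0.19 for Zap70 and from -0.23 to 0.0051 for Cd28. In lung KO against WT, Zap70 with AP ran from -0.063 to 0.31 and Cd3d in sham from -0.49 to 0.036. For colon WT AP against sham the ranges were -0.12 to 0.48 for Cd3e, -0.12 to 0.56 for Cd3g, -0.039 to 0.59 for Cd247, -0.0036 to 0.66 for Lck, -0.30 to 0.23 for Cd4, -0.22 to 0.42 for Cd8a, -0.26 to 0.53 for Cd8b1 and -0.018 to 0.29 for Cd28. For colon KO AP against KO sham they were -0.65 to 0.026 for Cd3e, -0.83 to 0.057 for Cd3g, -0.54 to 0.10 for Cd247, -0.58 to 0.063 for Zap70, -0.27 to 0.11 for Cd4 and -0.23 to 0.035 for Cd28, each highest without KO sham replicate 5. The difference of response of Cd4 in colon ran from -0.36 to 0.17.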
